A study of Mus musculus with 33 samples.

Results

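The epithelium of the proximal colon was compared between old and young mice, using every cell of the proximal colon libraries. These were 7976 of the 23762 cells and 11 of the 33 libraries of a study of the ageing mouse colon. The libraries came from 11 female wild-type C57BL6/J mice kept under specific pathogen-free conditions, 5 young (1 of 8 weeks, 3 of 12 weeks and 1 of 20 weeks) and 6 old (2 of 90 weeks, 1 of 92 weeks and 3 of 108 weeks), and the labels do not tie an age to a mouse number. The labels name no treatment. Crypts were isolated, digested to single cells, stained for EpCAM, a surface protein of epithelial cells, and for a hashtag antibody. EpCAM-positive cells were then sorted and run on the 10X Genomics 3' kit, version v2 or v3.1, with no version given for any mouse.

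The lining of the colon is folded into crypts. Stem cells near the crypt base, maintained by Wnt signals, give rise to dividing progenitors, which mature into absorptive colonocytes and mucus-secreting goblet cells, with rarer endocrine and tuft cells. The proximal colon takes up water, salts, short-chain fatty acids and part of the dietary calcium, and its cells secrete antimicrobial proteins that keep bacteria away from the surface. All cells of a library were summed here, so each value describes the whole sorted epithelium of 1 mouse, and fewer cells of a type cannot be told apart from less RNA per cell.

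Libraries were small in some mice. The 5 young libraries held 49, 18, 350, 1316 and 2263 cells (Young 1 to Young 5) and the old ones from 47 to 1320, with 536778 to 13242274 UMIs (unique molecular identifiers, each tagging 1 captured RNA molecule). Mice 1 to 3 of both ages had medians of 18956 to 35061 UMIs per cell and mice 4 to 6 of 3608 to 9513. This difference is called the depth group below, and it was a term of the model. Young 5 stood apart, where mitochondrially encoded genes took 2.49% of UMIs, while the other 10 libraries had 5.97% to 10.3%. Differences between old and young libraries in cells, median UMIs, median genes per cell and mitochondrial share did not pass the test (two-sided exact permutation test within depth groups over 4 measures, p = 0.245 to 0.755, adjusted p = 0.6 to 0.755, with 0.005 the smallest p these groups allow). The mitochondrial share was 1.32 percentage points higher in old mice, which was 0.024 points in mice 1 to 3 and 3.41 points in mice 4 to 6.

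The label was checked against marker genes. All 14 epithelial markers listed were tested, and their summed level was 14379 to 25073 CPM (UMIs of a gene scaled to a fixed library total) in young and 11116 to 21256 CPM in old mice. Markers of T and natural killer cells summed to 1.54 to 47.2 CPM in young mice and 2.31 to 8.49 CPM in old ones, those of myeloid cells to 1.83 to 54.2 and 2.43 to 26.4 CPM, those of stroma, vessels and glia to 0 to 15.4 and 3.31 to 14.7 CPM, and those of B and plasma cells to 1.13 to 3.67 and 0 to 3.08 CPM. Markers of ileal enterocytes and Paneth cells, which belong to the small intestine, reached 132 to 4642 CPM in young mice and 146 to 2623 CPM in old ones, with the highest value in Young 5. Proximal libraries of different mice shared 1 cell barcode among mice 1 to 3 (15 pairs), 33 among mice 4 to 6 (10 pairs) and 0 between these groups (30 pairs). They shared 96 with cecal or distal libraries of other mice (220 pairs) and 0 with those of the same mouse (22 pairs).

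Of 11541 genes tested, 5 passed an adjusted p of 0.05 for age, which is 0.0433% of them, with 2 higher (0.0173%) and 3 lower (0.026%) in old mice (edgeR quasi-likelihood F test, Benjamini-Hochberg adjustment). At an unadjusted p below 0.05 there were 209 genes higher (1.81%) and 200 lower (1.73%), together 3.54%. The genes that fell were Kremen2, which encodes a receptor for the Wnt antagonists of the Dickkopf family, S100g, which encodes the calcium-binding protein calbindin-D9k, and Bex4, of the brain-expressed X-linked family. Those that rose were Parp3, which encodes an ADP-ribosyltransferase of DNA break repair, and Dmrta2, which encodes a transcription factor of the doublesex-related family. The number of calls was 0 without Young 4 (568 genes at an unadjusted p below 0.05), 10 without Old 2 and 34 with DESeq2, and the same 5 genes were among both the 10 and the 34. Without the depth group term Kremen2 was the 1 gene called (adjusted p = 0.0221), and the other 4 calls ended (adjusted p = 0.595 for Parp3, 0.542 for S100g, 0.146 for Bex4 and 0.0684 for Dmrta2).

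The start regions of the called genes with the deepest fall and the steepest rise are shown first, because they differ in base composition. Each is the RefSeq promoter window of GRCm38.p6, 250 bases before to 50 after the gene start, 5' to 3' on the gene's strand, with CG dinucleotides in capitals. The first is chrX:162964550-162964849 on the minus strand and the second chr4:109977775-109978074 on the plus strand.
S100g: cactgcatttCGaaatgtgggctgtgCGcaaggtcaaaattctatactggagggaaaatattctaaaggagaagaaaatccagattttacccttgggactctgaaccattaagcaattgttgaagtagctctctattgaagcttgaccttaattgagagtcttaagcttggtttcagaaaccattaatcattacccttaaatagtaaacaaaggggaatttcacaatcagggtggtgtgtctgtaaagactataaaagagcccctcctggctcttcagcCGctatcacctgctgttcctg
Dmrta2: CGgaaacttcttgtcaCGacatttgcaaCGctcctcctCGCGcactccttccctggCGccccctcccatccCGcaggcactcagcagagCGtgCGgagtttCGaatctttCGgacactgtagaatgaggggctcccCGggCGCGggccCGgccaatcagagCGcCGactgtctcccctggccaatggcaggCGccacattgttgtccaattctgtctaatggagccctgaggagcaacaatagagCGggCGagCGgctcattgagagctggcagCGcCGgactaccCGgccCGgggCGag
The S100g window held 3 CG dinucleotides and the Dmrta2 window 26, against a median of 7 over 27025 promoters in the table (quartiles 3 and 21). The windows of Parp3, Kremen2 and Bex4 held 16, 17 and 9. The motif AGGTCA, a half-site of nuclear receptors, was searched on both strands. It had 2 matches in the S100g window and 0 in the other 4, and 16.0% of all promoters held at least 1 match and 1.74% at least 2. These matches describe letters and were not tested as binding sites.

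Kremen2 gave the smallest p. Its level was 10.7, 10.998, 14.7, 15.2 and 14.2 CPM in Young 1 to Young 5, and in old mice it ranged from 3.24 to 5.52 CPM with a median of 5.17. Every old library lay below every young one, a separation that 16 tested genes showed in this direction (0.139%) and 17 in the other (0.147%), together 0.286%. The log2 change was -1.43 ± 0.16 (SE, adjusted p = 0.0045), a mean of 13.2 ± 2.15 CPM (SD, n = 5) against 4.92 ± 0.838 (SD, n = 6). It was -1.35 among mice 1 to 3 and -1.50 among mice 4 to 6. Without Young 4 its adjusted p was 0.0562. The gene lies on the minus strand of chromosome 17 (23741197 to 23745833, GENCODE M21 on GRCm38) and overlaps 9530082P21Rik on the other strand. Whether the counting used strand is not given in the sources used here, and the part of reads from genes on the opposite strand was not tested.

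Kremen2 acts beside the Wnt co-receptor Lrp6, which had 50.2 ± 13.7 CPM in young mice and 50.9 ± 16.2 CPM in old ones (SD, n = 5 and 6; log2 difference 0.09 ± 0.11, SE). Of the 28 genes listed for Wnt signalling 22 were tested, and 0 were called, with 15 above and 7 below zero and a median log2 difference of 0.12. Over all tested genes the median was 0.001, with 50.3% above zero. Lgr5, the stem cell receptor for R-spondins, had 13.8 ± 5.50 CPM in young mice and 22.1 ± 19.9 CPM in old ones. The old mean rested on Old 1 (47 cells) at 62.4 CPM, and without that library the log2 difference was -0.06. Of 20 markers of stem cells 19 were tested, 0 called, and 15 were above zero (median 0.20). Their median was 0.08 without Old 1. It was 0.03, with 60% above zero, without Young 5 and the libraries under 50 cells. Of 19 Notch genes 15 were tested and 0 called, with a median of 0.06.

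S100g carries calcium across absorptive cells. Its level was 51.4, 258, 40.2, 325 and 390 CPM in Young 1 to Young 5, and 2.16 to 52.1 CPM with a median of 18.9 in old mice. The lowest young libraries, Young 1 and Young 3, lay below the highest old one, Old 6. Within each depth group every old library lay below every young one. How many of all tested genes separate in this way within the depth groups was not counted, so this separation is no support for the call. The mean was 213 ± 160 CPM (SD, n = 5) in young and 23.2 ± 19.2 CPM (SD, n = 6) in old mice, with a log2 change of -3.54 ± 0.49 (SE, adjusted p = 0.0223). It was -3.92 among mice 1 to 3 and -3.20 among mice 4 to 6 (adjusted p = 0.0107 in the latter). The call ended without Young 4, Old 4 or Old 5 (adjusted p up to 0.112), with robust empirical Bayes (0.167), and without the 3 libraries under 50 cells together with Young 5 (0.0645), the last 2 settings being chosen after seeing the data. S100g lies on the minus strand of the X chromosome (162961992 to 162964599), inside Ctps2 on the plus strand. Ctps2 itself had 18.5 ± 2.63 CPM in young mice and 17.9 ± 3.73 CPM in old ones.

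The other genes of calcium and magnesium handling did not pass the test. Of 18 listed 14 were tested, S100g was the 1 called, and 7 lay above and 7 below zero (median -0.04). The vitamin D receptor Vdr had 110 ± 8.21 CPM in young mice and 119 ± 26.5 CPM in old ones (log2 difference 0.12 ± 0.16). The plasma membrane calcium pump Atp2b1 had 212 ± 71.8 and 154 ± 41.8 CPM (-0.48 ± 0.21, edgeR adjusted p = 0.998). Slc30a10, a manganese exporter that was picked from the list after its values were seen, had 1.13, 5.50, 0.18, 10.9 and 17.8 CPM in Young 1 to Young 5 and 0 to 3.96 CPM in old mice (-2.48 ± 0.59, adjusted p = 0.3). The claudins Cldn2 and Cldn15, which form cation and water pores between cells, differed by 0.22 ± 0.34 and 0.02 ± 0.13.

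Bex4 is a small X-linked gene of a family best known from neurons. Its level was 11.3, 1.83, 13.8, 24.6 and 9.99 CPM in Young 1 to Young 5, and 2.24 to 4.86 CPM with a median of 2.95 in old mice. Young 2, a library of 18 cells, lay below every old library and the other 4 young ones lay above them. The log2 change was -2.20 ± 0.33 (SE, adjusted p = 0.034). It was -1.56 among mice 1 to 3 and -2.72 among mice 4 to 6, and leaving out Young 1, Young 3, Young 4 or any of Old 3 to Old 6 ended the call (adjusted p up to 0.214). The gene lies on the plus strand of the X chromosome (136138996 to 136140443). Its neighbour Bex1 had 20.8 ± 12.7 CPM in young and, among the old, 10.97 ± 2.97 CPM, short of the threshold (-1.19 ± 0.23, adjusted p = 0.108). Bex3 had 85.7 and 92.8 CPM (0.06 ± 0.15). Of 29 imprinted and Bex genes listed 13 were tested, and Bex4 was the 1 called (8 above and 5 below zero, median 0.06).

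Parp3 was low in every library. It had 4.51, 5.50, 4.49, 1.82 and 2.43 CPM in Young 1 to Young 5, and 6.02 to 14.8 CPM with a median of 8.13 in old mice. No old library overlapped a young one, and mice 1 to 3 lay above mice 4 to 6 at either age. The log2 change was 1.52 ± 0.18 (SE, adjusted p = 0.00711), with 1.44 among mice 1 to 3 and 1.59 among mice 4 to 6, and the call ended without Young 3 or Young 4 (adjusted p up to 0.0564). Parp3 lies on the minus strand of chromosome 9 (106470322 to 106476949) and overlaps Rrp9 on the plus strand.

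Dmrta2 was nearly undetected in young mice, with 8 UMIs in 5 libraries against 195 in 6 old ones. It had 0, 0, 0.27, 0.25 and 0.26 CPM in Young 1 to Young 5 and 1.61 to 10.5 CPM with a median of 3.61 in old mice, without overlap. The fitted log2 change of 4.10 ± 0.62 (SE, adjusted p = 0.034) depends on the prior count, since the young level is close to zero. Leaving out any young mouse, or Old 4, Old 5 or Old 6, ended the call (to an adjusted p of 0.231 at most), as did limma-voom (0.146), libraries of at least 50 cells (0.169) and those without Young 5 (0.383, chosen after seeing the data). Dmrta2 lies on the plus strand of chromosome 4 (109978053 to 109983687).

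**Figure D1:**
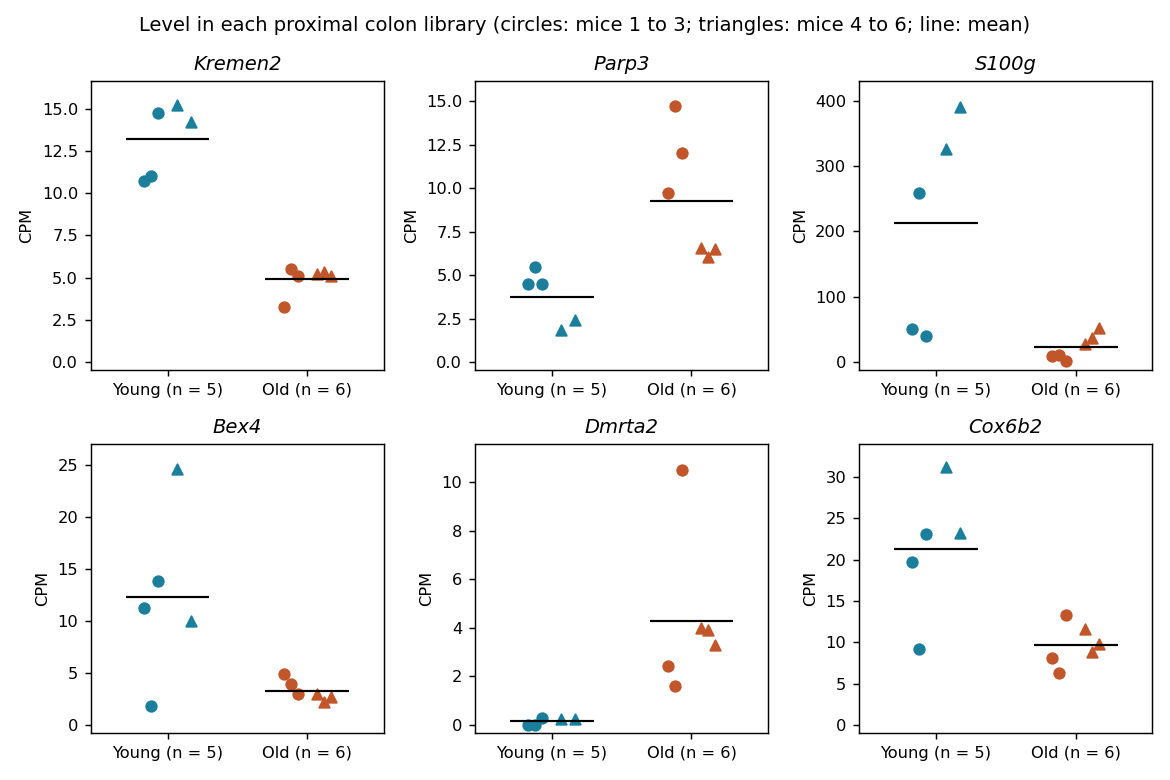
Level in CPM (y axis, linear) of the 5 called genes and of Cox6b2 in each of the 5 young and 6 old proximal colon libraries, with circles for mice 1 to 3, triangles for mice 4 to 6 and a line at the group mean. Kremen2, Parp3 and Dmrta2 separate old from young libraries, while Young 2 lies among or below the old libraries for Bex4 and Cox6b2.

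The 15 genes next in order of p did not pass (adjusted p = 0.0615 to 0.118) and are given as values. Each passed in at least 1 alternative setting other than leaving out 1 library, from 1 of 13 for Ache to 4 of 13 for Cox6b2. The line between these and the called genes therefore depends on the processing. Sycn, which encodes the granule protein syncollin, had 481, 418, 370, 168 and 329 CPM in Young 1 to Young 5 and 453 to 2818 CPM with a median of 825 in old mice (log2 difference 1.60 ± 0.30, adjusted p = 0.0953). Within each depth group every old library lay above every young one, a pattern not counted over all tested genes. Apob, the structural protein of lipoproteins, had 7.94 to 25.7 CPM in young mice and 19.5 to 78.6 CPM in old ones (1.62 ± 0.29). Vsig2, a cell surface protein with immunoglobulin domains, had 34.4, 42.2, 43.3, 48.3 and 111 CPM in young mice and 72.9 to 189 CPM in old ones (1.38 ± 0.26). Young 5 was the 1 young library inside the old range.

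Others encode channels, signals and receptors. The potassium channel Kcnk10 had a mean of 0.885 CPM in young mice and 3.26 CPM in old ones (log2 difference 2.14 ± 0.35). The ATP-gated channel P2rx7 had 1.39 and 3.82 CPM (1.67 ± 0.33), the glutamate transporter Slc1a3 had 2.18 and 5.89 CPM (1.28 ± 0.24), and acetylcholinesterase, Ache, had 3.02 and 6.86 CPM (1.24 ± 0.22), each without overlap between the ages. Ccl20, a chemokine that draws CCR6-bearing lymphocytes and dendritic cells, had 6.77, 0, 2.51, 6.38 and 6.02 CPM in Young 1 to Young 5 and 0.405 to 1.62 CPM in old mice (-2.22 ± 0.38, adjusted p = 0.0703). Crlf2, a subunit of the receptor for thymic stromal lymphopoietin, had 4.43 and 1.89 CPM (-1.50 ± 0.30), and Arhgap9, a GTPase-activating protein of blood cells, 5.29 and 2.06 CPM (-1.31 ± 0.23). The alternative settings included a fit without cells carrying non-epithelial UMIs. Over these settings the log2 difference ranged from -1.82 to -1.21 for Crlf2 and from -1.40 to -1.29 for Arhgap9. The part of any remaining immune cell RNA in these values was not tested.

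Of the remaining genes of small p, Cox6b2, a form of a respiratory chain subunit found mainly in testis, had 21.3 ± 7.96 CPM in young mice and 9.67 ± 2.52 CPM in old ones (log2 difference -1.25 ± 0.22, adjusted p = 0.0703). Ssbp2, a DNA-binding cofactor of LIM-domain complexes, had 10.6 and 4.09 CPM (-1.18 ± 0.22). The gap junction protein Gja1 had 98 UMIs in young and 10 in old libraries (-3.62 ± 0.68). The transcript 0610040F04Rik, which runs antisense to Bhlhe40, had 0 to 5.08 CPM in young mice and 1.62 to 41.9 CPM in old ones (2.40 ± 0.44, adjusted p = 0.0953). Bhlhe40, a repressor of the circadian clock, had 33.9 and 41.3 CPM (0.26 ± 0.17). All 20 genes had the same sign in each depth group in which they could be tested. They were picked by p over these same mice, so this agreement is not independent support.

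**Figure D2:**
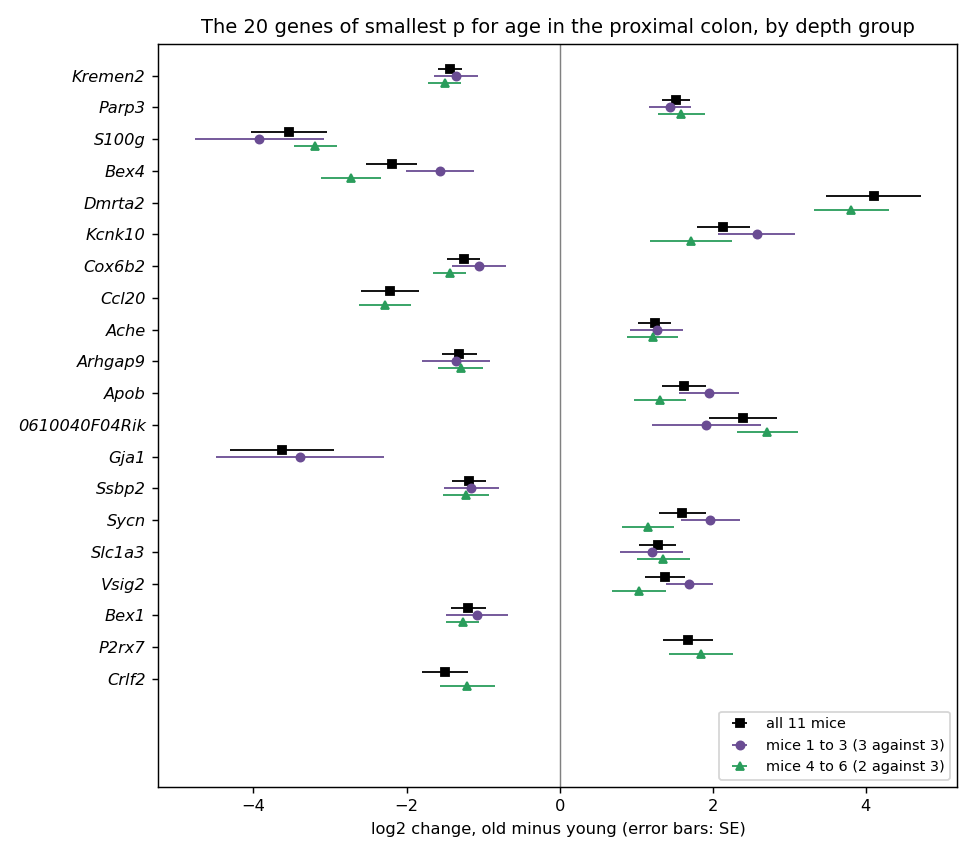
Log2 change between old and young mice (x axis; error bars are SE) of the 20 genes with the smallest p, from all 11 mice, from mice 1 to 3 (3 young, 3 old) and from mice 4 to 6 (2 young, 3 old). A symbol is missing where a gene had too few counts in that group, as for Dmrta2 in mice 1 to 3, and no gene crosses zero between the groups. The genes were picked by p over the same mice, so the shared sign is not independent support.

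Absorptive colonocytes exchange salt and bicarbonate and form the crypt surface. Of 24 markers 23 were tested and 0 called (0.0433% of all genes were), with 7 above and 16 below zero and a median log2 difference of -0.38. The median was -0.26 among mice 1 to 3 and -0.48 among mice 4 to 6, and 0.10 without the libraries under 50 cells and Young 5, the sign then being turned. Car1, a carbonic anhydrase of mature colonocytes, had 3643, 10036, 3893, 11589 and 21971 CPM in Young 1 to Young 5 and 774 to 15801 CPM with a median of 5437 in old mice (-1.02 ± 0.41, adjusted p = 0.998). The anion exchanger Slc26a3 had 81.8 ± 54.2 and 56.0 ± 24.5 CPM (-0.47 ± 0.38). Old and young libraries overlapped widely for both. Genes of ion and water transport (29 of 34 tested) had 0 calls and a median of -0.07. The 14 general epithelial markers had 0 calls, with 1 above and 13 below zero. Their median was -0.16, and -0.003 without the libraries under 50 cells and Young 5.

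Fatty acid oxidation is the main use colonocytes make of butyrate. The list of its genes also holds targets of the PPAR nuclear receptors, among them genes of lipid binding and storage. It had 0 calls among 36 tested of 38, with 27 below zero (median -0.22). Acot1, an acyl-CoA thioesterase picked after its values were seen, had 39.5 to 81.4 CPM in young mice and 26.3 to 41.5 CPM in old ones (-0.72 ± 0.15, adjusted p = 0.134). Young 5 held the highest value. Without it and the libraries under 50 cells the median of the list was 0.005. Of 19 cytochrome c oxidase subunits 16 were tested and 0 called (13 below zero, median -0.23). Of the 10 other mitochondrially encoded genes 0 were called and 8 were above zero, with a median of 0.05 among mice 1 to 3 and 0.56 among mice 4 to 6, where the low mitochondrial share of Young 5 falls. For mt-Atp6, a subunit of ATP synthase, Young 5 had 3460 CPM against 11166 to 17747 CPM in the other young libraries.

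Goblet cells fill the crypt with mucin. All 22 of their markers were tested and 0 were called, with 19 above and 3 below zero (median 0.21, 0.12 among mice 1 to 3 and 0.18 among mice 4 to 6). The median was -0.007 without Old 1 and 0.014 without Young 2, with 50% and 54.5% of the markers above zero, and -0.03 without Young 5 and the libraries under 50 cells. Their summed level was 691 CPM in Young 2 and 2118 CPM in Old 2, against 10010 to 36181 CPM in the other young libraries. Muc2, the gel-forming mucin, had 5750, 16.5, 2302, 3578 and 3688 CPM in Young 1 to Young 5 and 229 to 4970 CPM in old mice (-0.16 ± 0.82). The sign of this difference turned under several settings. Clca1, a secreted protease that processes mucin, picked after its values were seen, had 5.50 to 192 CPM in young mice and 81.0 to 900 CPM in old ones (2.14 ± 0.75, adjusted p = 0.998). It was 3.56 among mice 1 to 3 and 0.67 among mice 4 to 6. Of 24 genes of mucin glycosylation 22 were tested and 0 called (median 0.20). Markers of dividing cells (26 tested), endocrine cells (14 of 16) and tuft cells (15 of 17) had 0 calls and medians of -0.05, 0.20 and -0.10. Leaving out 1 library turned all 3 signs: the endocrine median was -0.31 without Old 3 and -0.10 without Young 5, the tuft median ranged from -0.62 without Old 3 to 0.14 without Old 2, and that of dividing cells was 0.18 without Young 4. Markers of ileal enterocytes and Paneth cells (17 of 20) had 0 calls and medians of opposite sign in the depth groups, 0.19 and -0.71, and -0.77 without Old 1.

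Among genes of mucosal defence, 0 of the 19 tested of 25 were called (median -0.03). Reg3g, a lectin that kills Gram-positive bacteria, had 201, 2168, 519, 506 and 249 CPM in Young 1 to Young 5 and 79.0 to 287 CPM with a median of 168 in old mice (-1.80 ± 0.49, adjusted p = 0.56). Its relative Reg3b had 118, 1620, 1882, 1722 and 584 CPM in young mice and 119 to 587 CPM in old ones (-1.82 ± 0.56, adjusted p = 0.955). Both groups overlapped for both genes. The polymeric immunoglobulin receptor Pigr, which carries IgA into the lumen, had 1926 and 1850 CPM. Of 36 interferon response genes 27 were tested and 0 called, with 6 above and 21 below zero (median -0.25, but 0.03 among mice 1 to 3 and 0.02 without Young 5). Ly6e, an interferon-inducible surface protein, had 89.8 to 179 CPM in young mice and 166 to 350 CPM in old ones (1.01 ± 0.21, adjusted p = 0.147), against the direction of most of its list. Of 18 genes of antigen presentation 16 were tested and 0 called (median -0.11), and H2-K1, a class I heavy chain, had 376 and 332 CPM.

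Genes raised by tissue dissociation and heat shock had 0 calls among 23 tested, yet 21 of 23 lay below zero. The median was -0.41, with -0.45 among mice 1 to 3 and -0.32 among mice 4 to 6, and from -0.63 to -0.18 over the settings tried. Their summed level was 6601 to 13816 CPM in young mice and 5719 to 10132 CPM in old ones, with overlap. Fos, an immediate early transcription factor, had 1145 and 821 CPM (-0.47 ± 0.33), and the chaperone Hspa8 2468 and 2295 CPM. The part of cell handling in the other differences was not tested. Ribosomal protein genes (79 of 82 tested) had 0 calls, with 9 above and 70 below zero. Their median was -0.13, with 0.06 among mice 1 to 3 and -0.35 among mice 4 to 6.

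Of 25 genes of senescence and p53 signalling 21 were tested and 0 called (median -0.08). Cdkn1a, which encodes the cell cycle inhibitor p21, had 94.8, 86.1, 53.8, 136 and 267 CPM in Young 1 to Young 5 and 35.6 to 126 CPM with a median of 62.4 in old mice (-0.87 ± 0.21, adjusted p = 0.359). Within each depth group every old library lay below every young one, a pattern whose share over all tested genes was not counted. Of 19 clock genes 15 were tested and 0 called (median 0.05). Clock, a core activator of the oscillator, had 39.3 ± 14.0 and 49.5 ± 18.4 CPM (0.43 ± 0.15, adjusted p = 0.998). Genes of position along the gut (12 of 18 tested), cholesterol synthesis (21 of 21) and detoxification (42 of 46) had 0 calls and medians of 0.18, 0.003 and -0.06. In the first list Hoxb13, a homeobox gene of the hindgut picked after its values were seen, had 7.33 to 19.8 CPM in young mice and 10.1 to 121 CPM in old ones, the highest in Old 1 (1.17 ± 0.41, adjusted p = 0.998). With 1 library left out the median also changed sign for the lists of mucosal defence (0.17 without Young 5), antigen presentation (0.02 without Old 2), calcium and magnesium handling (0.02 without Young 1), imprinted and Bex genes (-0.04 without Young 5), the clock (-0.03 without Old 2), position along the gut (-0.002 without Young 3), cholesterol synthesis (-0.04 without Young 1) and detoxification (0.01 without Young 2).

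**Figure D3:**
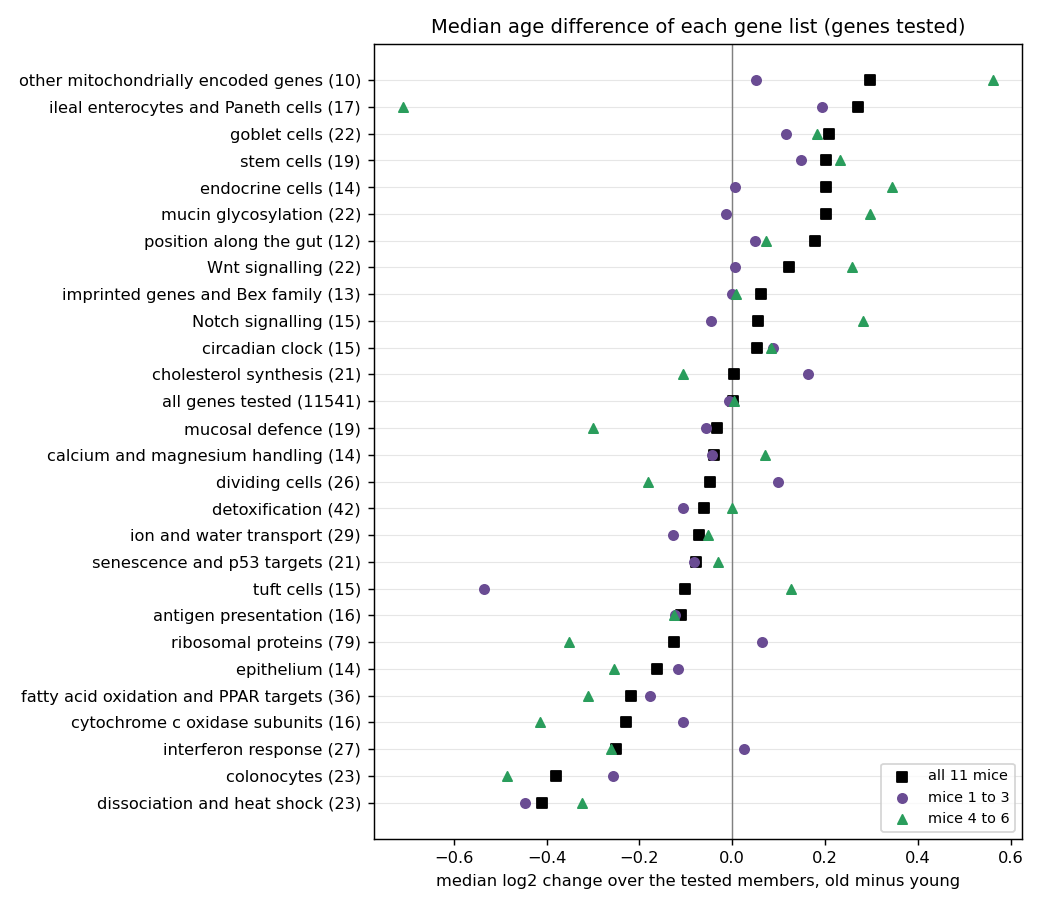
Median log2 difference between old and young mice (x axis) over the tested members of each gene list with at least 10 tested genes, from all 11 mice and from each depth group, with the number of tested genes in brackets. Dissociation and colonocyte genes lie lowest, at -0.41 and -0.38, and several lists, such as those of ileal and tuft cells, differ in sign between the depth groups.

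Further genes that were named for age within cell classes of this study were examined in the whole proximal epithelium, and they are not independent evidence. Kif26a, a kinesin family member, had 1.69, 0, 3.50, 2.15 and 1.54 CPM in Young 1 to Young 5 and 1.81 to 30.1 CPM with a median of 22.8 in old mice. Its log2 difference was 2.99 ± 0.62 (adjusted p = 0.147), and 3.73 among mice 4 to 6, where it passed (adjusted p = 0.0107). Ceacam10, a cell adhesion protein, had 48.8 to 143 CPM in young mice and 156 to 377 CPM in old ones, without overlap (1.31 ± 0.29, adjusted p = 0.239). The phosphatase Ptpn6 had 42.9 and 66.7 CPM (0.59 ± 0.23), Itih5, a matrix-associated heavy chain, 19.4 and 35.4 CPM (0.83 ± 0.28), and Pibf1, a centrosomal protein, 105 and 165 CPM (0.69 ± 0.29), each with an adjusted p of 0.998. Sprr1a, a small proline-rich protein, had 5.27 and 4.82 CPM.

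The last question was whether the age differences of the proximal colon departed from those of the cecum or the distal colon of the same mice. It was tested as a difference of age effects within mice over 12295 genes. Against the cecum 0 genes passed (0%) with edgeR and 0 with limma-voom, and 602 (4.9%) had an unadjusted edgeR p below 0.05. The smallest adjusted p, 0.189, was shared by Vsig2 and Creg1, a secreted glycoprotein. For Vsig2 the age effect in the proximal colon exceeded that in the cecum by 1.07 ± 0.21 on the log2 scale, and Sycn, Apob and Slc1a3 gave 1.15 ± 0.23, 1.16 ± 0.24 and 2.19 ± 0.47 (adjusted p = 0.19 to 0.235). For Creg1 it was -0.38 ± 0.07.

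Against the distal colon 2 genes passed (0.0163%), with 663 at an unadjusted p below 0.05 (5.39%). They were Meg3 and Kcnq1ot1, both imprinted long noncoding RNAs. Meg3 is expressed from the maternal allele. Scaled over all 33 libraries, it had 36.0 ± 48.1 CPM in the young distal colon (SD, n = 5) and 0.0885 ± 0.103 CPM in the old (SD, n = 6), but 6.63 ± 5.51 and 6.25 ± 15.2 CPM in the proximal colon. In the proximal colon 48 of the 50 old UMIs came from Old 1, at 38.9 CPM, and the other 5 old libraries had 0 to 0.134 CPM. The log2 change of Meg3 with age in the proximal colon alone was -2.06 (edgeR, adjusted p = 0.998). It was -7.27 to -0.38 over the alternative settings, and 2 of 13 of these called it. The difference of age effects was 7.83 ± 0.78 (SE, adjusted p = 0.000108). It fell to 2.27 without Old 1, with an adjusted p of 0.825, and limma-voom gave 4.46 (adjusted p = 0.394). The gene lies on chromosome 12 (109541001 to 109571726, plus strand).

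Kcnq1ot1, an antisense transcript of the Kcnq1 locus expressed from the paternal allele, had 35.9 ± 11.8 CPM in the young and 43.7 ± 33.9 CPM in the old proximal colon, against 51.9 ± 27.9 and 18.3 ± 11.7 CPM in the distal colon (SD, n = 5 and 6). The difference of age effects was 1.80 ± 0.30 (SE, adjusted p = 0.0247). Leaving out Young 3, Young 4, Old 2 or any of Old 4 to Old 6 ended the call (adjusted p up to 0.458). Ctse, which encodes the aspartic protease cathepsin E, came next (1.26 ± 0.27, adjusted p = 0.416).

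The 5 genes called in the proximal colon did not pass either test of the difference. Kremen2 had an age effect of -1.64 ± 0.29 in the cecum (adjusted p = 0.0721) and of -0.27 ± 0.27 in the distal colon (0.794), where the difference from the proximal colon was -1.22 ± 0.29 (SE, adjusted p = 0.616). Parp3 had 1.30 ± 0.20 in the cecum and 0.74 ± 0.17 in the distal colon, and S100g -2.08 ± 0.63 and -1.48 ± 0.34. Bex4 passed in both other compartments (-3.28 ± 0.38 and -1.50 ± 0.25, adjusted p = 0.0131 and 0.0346). Dmrta2 passed in the cecum (3.45 ± 0.45, adjusted p = 0.0263) and had 4.29 ± 0.89 in the distal colon (adjusted p = 0.115). Scaled over all libraries, the young median of S100g was 245 CPM in the proximal colon (38.9 to 385), 10.5 CPM in the cecum (4.46 to 274) and 9.64 CPM in the distal colon (4.64 to 33.3), and the difference between compartments was not tested.

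**Figure D4:**
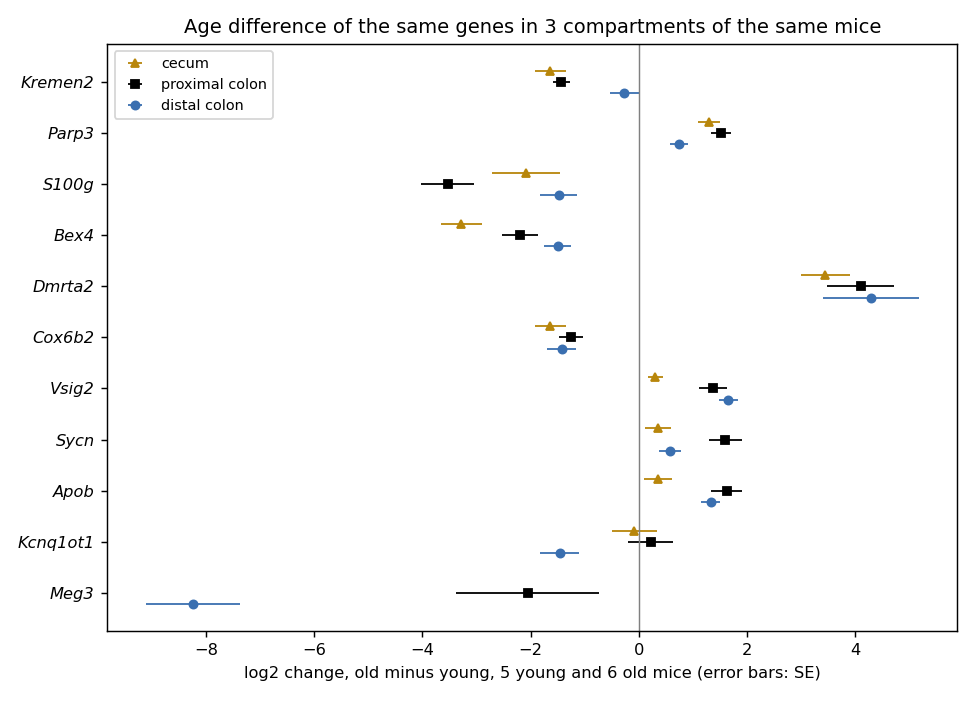
Log2 change between old and young mice (x axis; error bars are SE) of 11 genes in 3 compartments, cecum, proximal and distal colon, of the same 5 young and 6 old mice, each compartment fitted alone. Kremen2, Parp3, S100g, Bex4 and Dmrta2 keep their sign in all 3, Meg3 lies at -2.06 in the proximal and -8.24 in the distal colon, and Meg3 was not tested in the cecum.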

How the data were processed

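Single-cell RNA-seq was done on EpCAM-sorted crypt cells of 11 mice, and the 11 proximal colon libraries were analysed, with the 22 cecal and distal libraries of the same mice for comparison. The authors deposited raw UMI counts per gene and cell, 1 table of 21852 genes per library, in whole numbers. Per the submitters' processing notes they were made with Cell Ranger on mm10; no version, strand setting or cell filter is given in the sources used here. Every proximal cell has at least 1559 UMIs and 1001 detected genes. The highest mitochondrial share of a single cell lay between 11.3% (Young 5) and 14.99% (Young 4) over the libraries. Whether cells had been cut by this share before deposit is not given. No doublets were removed here, and whether they had been removed before is not given.

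UMIs were summed per library, and each mouse was 1 replicate. Genes were kept with filterByExpr, scaled by TMM and tested in edgeR 4.0.16 (R 4.3.3, limma 3.58.1) by its quasi-likelihood F test, with age and depth group (mice 1 to 3 or 4 to 6) as terms. The fit has 8 residual degrees of freedom. The threshold was an adjusted p of 0.05 (Benjamini-Hochberg). CPM values are UMIs over TMM-scaled library sizes. For the compartment tests 33 libraries were fitted together, with mouse, compartment and the terms of compartment with depth group and with age. Library measures were compared by exact permutation of age within depth groups (200 assignments). DESeq2 1.42.0 and limma-voom were alternatives. Scripts were tested on simulated data.

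The text names the 20 genes of smallest p, called and most abundant members of each list, genes named for age in an earlier account of this series, and genes of smallest p in the compartment tests. Lrp6, Vdr, Lgr5, Slc26a3, Ctps2 and the genes said to be picked were added after their values were seen, and not every gene the rule covers is printed here. The comparison and the gene lists were chosen with earlier results of these data known. Positions are from GENCODE M21 and promoters from RefSeq, both on GRCm38; all 127 named genes had a position.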

Additional observations from a re-analysis of the deposited data

Results flagged for a closer look

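In a group of 5 or 6 libraries, a single library stood far from the others in 11 of 114 groups of values tested (Dixon's test). The test assumes normally distributed values, and many of these genes were picked by p or after their values were seen. No rate expected by chance is therefore given. Old 1, a library of 47 cells, accounted for 4 of the 11. It had 38.9 CPM for Meg3, 62.4 CPM for Lgr5 and 3.24 CPM for Gja1, each the highest old value, and 3.24 CPM for Kremen2, the lowest. Old 2 was highest for Sycn (2818 CPM), Ctse (35.4 CPM) and Ssbp2 (6.92 CPM). Young 5, the library with the lowest mitochondrial share, was the highest young library for Acot1 (81.4 CPM) and Vsig2 (111 CPM). Young 2, of 18 cells, was highest for Reg3g (2168 CPM), and Old 3 was highest for Dmrta2 (10.5 CPM).

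The age effect differed between the proximal and the distal colon for Meg3 (by 7.83 on the log2 scale) and for Kcnq1ot1 (by 1.80), in the edgeR test of that difference. Without Old 1 the value of Meg3 was 2.27 and did not pass (adjusted p = 0.825).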

How the results depend on the processing

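The count of 5 genes was the same with upper-quartile or DESeq2-type scaling in edgeR, without the low-count filter and without cells carrying non-epithelial UMIs, and was 6 with limma-voom and 7 with robust empirical Bayes, chosen after seeing the data. It was 34 with DESeq2, 1 without the depth group term, 0 in mice 1 to 3 alone (edgeR, 123 genes at an unadjusted p below 0.05), 3 in mice 4 to 6 alone, 8 in libraries of at least 50 cells, 9 in those without Young 5 (chosen after seeing the data) and 2 with cells thinned to 1500 UMIs, where 6007 genes could be tested. Leaving out 1 library gave 0 to 10. Leaving out each library gave 0 to 1 genes against the cecum and 1 to 3 against the distal colon. With thinned cells these tests called 9 and 0 genes (edgeR, 393 and 308 at an unadjusted p below 0.05), and limma-voom called 1 against the distal colon. In all settings in which they could be tested, the 5 called genes kept their sign in the proximal colon. With thinned cells S100g alone of the 5 could be tested, and Dmrta2 could not be tested in mice 1 to 3 alone. With a replicate block on mouse number 14 genes were called, 4 of the 5 among them. The labels do not say that a number is shared by a litter, day or batch. Residuals of same-numbered mice correlated at 0.133, 0.235 and 0.356 for mice 1 to 3 and at -0.0749 and -0.275 for mice 4 and 5. Only 2 of 5 old and 1 of 5 young libraries correlated best with their own number. Mice were not paired in the main fit, and whether some numbers pair them cannot be told from these values.

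Some differences near zero changed sign. Muc2 (-0.16) was 0.82 with limma-voom, 0.0096 without the depth group term, 0.43 with the replicate block, 0.21 in mice 4 to 6 alone, 0.0036 in libraries of at least 50 cells and 0.026 with thinned cells. Kcnq1ot1 was -0.15 with limma-voom and -0.046 in libraries of at least 50 cells, where Lgr5 was -0.13. Ctps2 was 0.072 in mice 4 to 6 alone, and Creg1 0.011 without the depth group term. Without Young 5 and the small libraries, Sprr1a, Creg1, Lgr5 and Slc26a3 gave 0.10, 0.057, -0.46 and 0.22. Against the cecum, Meg3 was -1.62 with limma-voom and Ctse -0.022 with thinned cells. Against the distal colon, thinned cells gave -0.015 for Creg1 and -0.026 for Apob. With 1 library left out, the ranges were -0.44 to 0.48 for Muc2, -0.43 to 0.12 for Sprr1a, -0.093 to 0.0036 for Creg1, -0.22 to 0.43 for Kcnq1ot1 and -0.063 to 0.74 for Lgr5. They were -0.66 to 0.92 for Meg3 against the cecum, and -1.37 to 0.82 for Dmrta2 and -0.079 to 0.44 for Apob against the distal colon. The cause was not tested. Libraries of 18 to 49 cells limit the precision for rare cell types, and genes near 1 CPM rest on few UMIs.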
